A study of Mus musculus with 35 samples.

Results

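Small RNA was sequenced from the hippocampus of C57BL/6J mice 24 h after the start of status epilepticus (SE), a prolonged seizure that was induced here with pilocarpine, an agonist of muscarinic acetylcholine receptors. The comparison holds 4 of the 16 small RNA libraries and of the 35 libraries of all kinds in the series, and they were taken as every small RNA library labelled 24 h. The 2 SE libraries came from mice injected intraperitoneally with pilocarpine at 350 mg/kg, and the 2 control libraries from mice given saline vehicle. All mice were 6 to 7 weeks old, both sexes were used, and the study's methods state that scopolamine, which blocks the peripheral effects of pilocarpine, was injected first. The methods also state that pilocarpine was given again in small steps until seizures of the required stage were reached, so the total dose may differ between the SE mice. In the study's sample table control replicate 2 was the female and the other 3 were males. The table gives a sex for each library, but whether a library came from 1 mouse is not stated in the sources used here. The p values below therefore measure only the spread between libraries. For single features that spread was estimated from all 16 small RNA libraries.

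MicroRNAs (miRNAs) are short RNAs cut from a hairpin. One or both arms of the hairpin (named 5p and 3p) are loaded into an Argonaute protein, and the bases near the 5′ end, the seed, pair with messenger RNAs, which are then repressed. The miRNAs with the same seed form a family with many targets in common. Neurons are rich in miR-9, miR-124 and miR-128, oligodendrocytes in miR-219 and miR-338, myeloid cells in miR-142 and miR-223, and endothelium in miR-126. The choroid plexus, the epithelium that makes cerebrospinal fluid and that lies against the hippocampus, is known for miR-204 and for a set of miRNAs in an intron of the serotonin receptor gene Htr2c. Neuronal activity and inflammation are known to act on miR-132, miR-212, miR-134 and miR-146a. Small RNA libraries also hold small nucleolar RNAs (snoRNAs), which guide the modification of ribosomal RNA, and pieces of other noncoding RNAs.

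The mature sequences on which the comparison turns are given first, from RefSeq annotation of GRCm38.p6, 5′ to 3′, with the seed (bases 2 to 8) in capitals. miR-221-3p had the highest fold change of the abundant miRNAs, and it shares its seed with miR-222-3p. Both lie on the minus strand of chromosome X (chrX:19146307-19146329 and chrX:19146901-19146923).
miR-221-3p: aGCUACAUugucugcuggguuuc
miR-222-3p: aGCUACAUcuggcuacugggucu

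The miR-29 family is shown because all 3 of its 3p arms lay below the controls. miR-29a-3p comes from chr6:31062673-31062694 (minus strand), miR-29c-3p from chr1:195037600-195037621 (plus strand), and miR-29b-3p from 2 loci, of which 1 is chr1:195037091-195037113 (plus strand).
miR-29a-3p: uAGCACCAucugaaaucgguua
miR-29b-3p: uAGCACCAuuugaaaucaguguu
miR-29c-3p: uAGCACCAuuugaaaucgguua

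Members of the miR-30 family are shown because miRNAs with an identical seed lay on opposite sides of the controls. miR-30a-5p comes from chr1:23272274-23272295 (plus strand), miR-30e-5p from chr4:120772660-120772681 (minus strand) and miR-30c-5p from 2 loci, of which 1 is chr1:23291714-23291736 (plus strand).
miR-30a-5p: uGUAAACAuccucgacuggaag
miR-30e-5p: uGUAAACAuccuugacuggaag
miR-30c-5p: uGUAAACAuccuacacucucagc

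Members of the let-7 family differ by very few bases, so the counts of close members depend on how reads were assigned. let-7b-5p comes from chr15:85707325-85707346 (plus strand), let-7c-5p from 2 loci, of which 1 is chr15:85706616-85706637 (plus strand), and let-7g-5p from chr9:106178846-106178867 (plus strand).
let-7b-5p: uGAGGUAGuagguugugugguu
let-7c-5p: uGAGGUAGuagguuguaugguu
let-7g-5p: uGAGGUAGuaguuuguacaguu

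The choroid plexus miRNAs are shown because they set the 2 control libraries apart from each other. miR-1298-5p (chrX:147064918-147064939) and miR-448-3p (chrX:147158281-147158302) lie on the plus strand in the Htr2c intron, miR-204-5p is at chr19:22750610-22750631 (plus strand) and miR-34b-5p at chr9:51103610-51103632 (minus strand).
miR-1298-5p: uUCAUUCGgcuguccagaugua
miR-448-3p: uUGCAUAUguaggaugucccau
miR-204-5p: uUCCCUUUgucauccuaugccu
miR-34b-5p: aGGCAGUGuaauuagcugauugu

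The miRNAs with the smallest p in each direction were miR-3081-3p (chr16:44558058-44558080, minus strand) and miR-8112 (chr6:71271745-71271764, plus strand), both scarce.
miR-3081-3p: uUGCGCUCcgaucucugagcugg
miR-8112: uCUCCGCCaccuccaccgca

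The deposited table holds 44884 rows of miRNAs, Piwi-interacting RNA (piRNA) annotations, snoRNAs, small nuclear RNAs (snRNAs) and ribosomal RNAs, of which 4398 had a count in at least 1 of the 4 libraries. After the filter on low counts 1103 features were tested, 663 of them miRNAs. Total counts per library at 24 h ranged from 4871340 to 7215889, and at least 99.9573% of them lay in tested features. Values below are CPM (counts divided by the library size and set to a common scale), with library sizes scaled by the trimmed mean of M values (TMM), and fold changes are fitted log2 values of SE minus control, with their standard error. Within each group the values are those of replicates 1 and 2.

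One SE library stood apart. Over features with enough counts, the median absolute log2 ratio between the 2 SE libraries was 0.303, and it was 0.376 and 0.390 between SE replicate 1 and the 2 controls. SE replicate 2 was closer to the controls (0.196 and 0.197) than the controls were to each other (0.215). Among the 221 miRNAs at a mean of 100 CPM or more, both SE libraries lay above both controls for 37, and SE replicate 1 was the farther of the 2 in 32 of these. Both lay below both controls for 56, and SE replicate 1 was the farther in 54. Fold changes without SE replicate 1 are therefore given beside many of the values below.

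**Figure D1:**
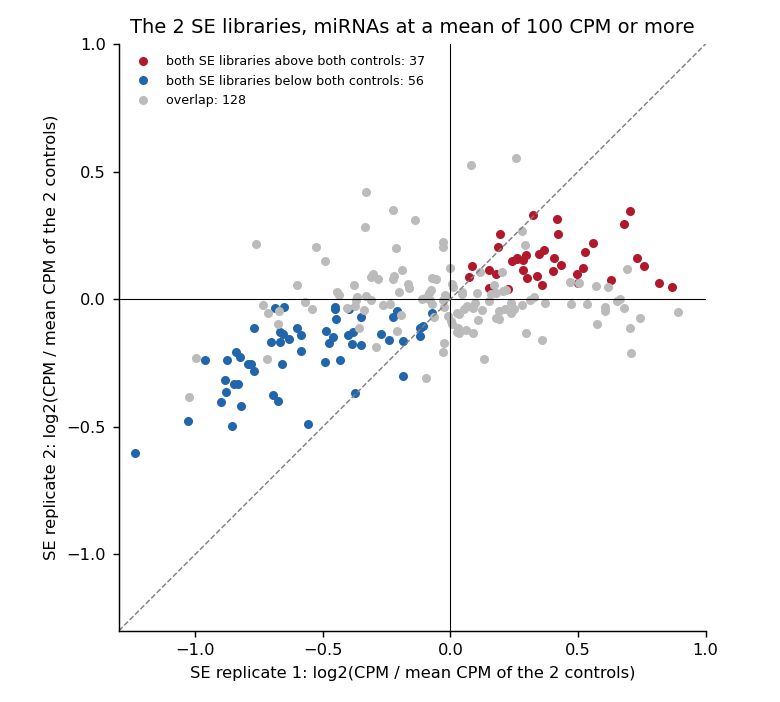
Each point is 1 of the 221 miRNAs at a mean of 100 CPM or more. The horizontal axis gives SE replicate 1 and the vertical axis SE replicate 2, each as log2 of CPM over the mean CPM of the 2 controls, and the dashed line marks equal distance. Red points (37) lie above both controls in both SE libraries, blue points (56) below both, and the cloud is wider along the axis of SE replicate 1.

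The question of the comparison was which small RNAs differ in level a day after SE. No feature passed an adjusted p of 0.05 in edgeR's quasi-likelihood test, 0 of 1103 higher and 0 of 1103 lower (0% each), and the adjusted p was 1 for every feature. At an unadjusted p under 0.05 there were 6 higher features (0.544%) and 8 lower (0.725%), or 14 in all (1.27%). The likelihood ratio test of edgeR and DESeq2 on the same libraries also passed 0 in either direction after adjustment, with 12 higher and 14 lower and with 7 higher and 9 lower at an unadjusted p under 0.05. The common biological coefficient of variation was 0.378. The 2 SE libraries lay above both controls for 175 of 1103 features (15.9%) and below both for 242 (21.9%), and 503 (45.6%) had a positive fold change. For miRNAs alone the counts were 121 of 663 above (18.3%), 136 below (20.5%) and 342 positive (51.6%).

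Among the 221 miRNAs at a mean of 100 CPM or more, fitted fold changes ran from -0.89 to 0.54 with a median of -0.03, and 202 were within 0.5 of 0. Of the other 19, 17 were lower and 2 were higher in SE mice. The median standard error of these fold changes was 0.26. Since these are bulk libraries, fewer cells of a type and less RNA per cell cannot be told apart in any value below.

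**Figure D2:**
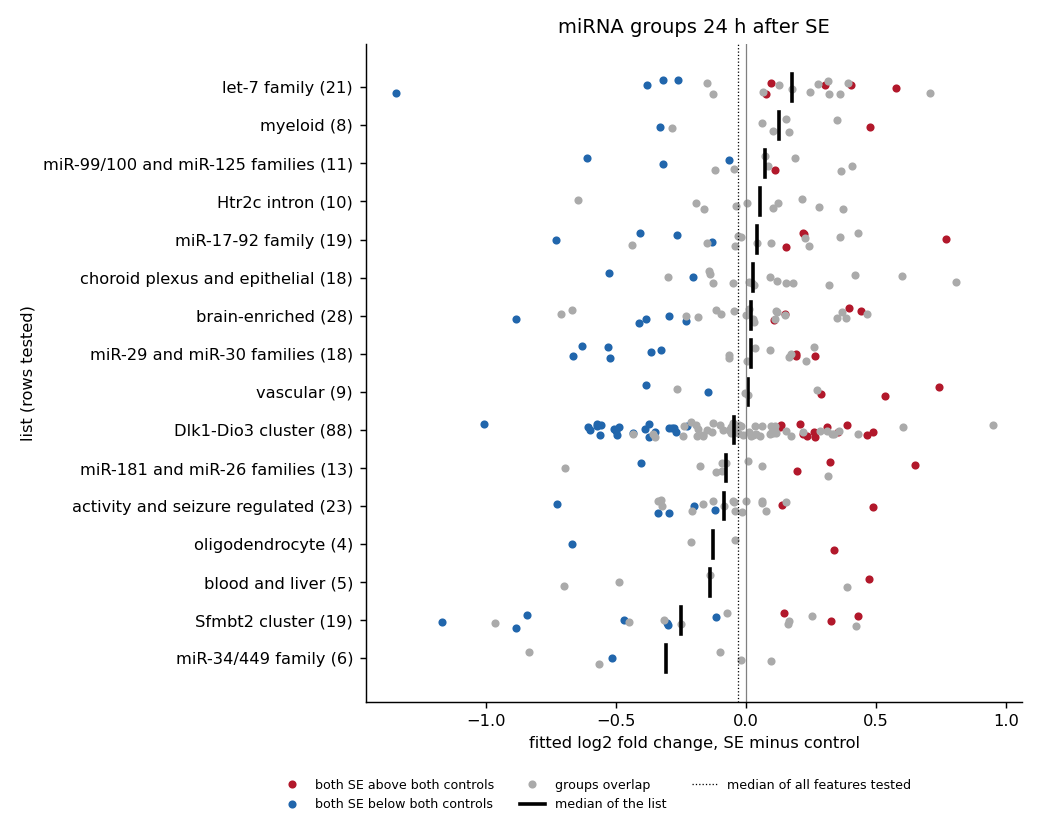
Each point is 1 tested miRNA row, placed by its fitted log2 fold change of SE minus control (horizontal axis) in the list named on the vertical axis, with the number of rows tested in brackets. Red and blue points are miRNAs for which both SE libraries lay above or below both controls, grey points overlap, black bars are list medians and the dotted line is the median of all tested features (-0.03). The median of all tested miRNAs, which is not drawn, was 0.01. All list medians lie between -0.31 (miR-34 and miR-449 family) and 0.18 (let-7 family).

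Of the abundant neuronal miRNAs, miR-9-5p and miR-124-3p overlapped between the groups, while the other arm miR-9-3p lay above both controls (0.11 ± 0.14). miR-9-5p, which acts in neural progenitors and neurons and was the most abundant small RNA, had 177970 and 182712 CPM in SE mice, against 171191 and 182265 CPM in control mice (log2 fold change 0.03 ± 0.17). For miR-124-3p, a marker of neurons, the values were 41447 and 40694 CPM in SE mice and 41080 and 39236 CPM in control mice (0.03 ± 0.28). The 10 most abundant miRNAs took 58.1% and 55.3% of all counts in SE mice, against 53.4% and 54.7% in control mice.

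miR-128-3p, a brain miRNA that restrains the excitability of neurons in mice, had the highest fold change of the 10 most abundant miRNAs. It had 95255 and 75370 CPM in SE mice, against 56507 and 72989 CPM in control mice (0.40 ± 0.26), and the groups did not overlap, though SE replicate 2 was close to control replicate 2. Its fold change was 0.22 without SE replicate 1 and 0.23 without control replicate 1. miR-26a-5p, a broadly expressed miRNA, had 64133 and 60291 CPM in SE mice and 57327 and 51261 CPM in control mice (0.20 ± 0.18, and 0.12 without control replicate 2), again without overlap. Over the whole list of brain-enriched miRNAs, 28 of 30 rows were tested, 4 lay above both controls and 5 below, against 18.3% and 20.5% of all miRNAs. The median fold change of the list was 0.02, against 0.01 over all miRNAs and -0.03 over all features.

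The members of the brain-enriched list below the controls included miR-7a-5p, known from neurons and endocrine cells, and miR-153-3p, known for its action on synaptic proteins. miR-7a-5p had 3718 and 4845 CPM in SE mice, against 5372 and 5800 CPM in control mice (-0.38 ± 0.20). miR-153-3p had 92.4 and 143 CPM in SE mice, against 213 and 222.4 CPM in control mice (-0.89 ± 0.65), the lowest fold change of all miRNAs at 100 CPM or more. Both SE libraries were below both controls in each case, and without SE replicate 1 the fold changes were -0.21 and -0.60.

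The pair miR-221 and miR-222, made from 1 transcript and known for acting on vessel wall cells and on the cell cycle inhibitor p27, lay above the controls. miR-221-3p had 4992 and 3895 CPM in SE mice, against 3176 and 2957 CPM in control mice (0.54 ± 0.26, unadjusted p = 0.0656, adjusted p = 1 by edgeR), the highest fold change among miRNAs at 100 CPM or more. miR-222-3p had 3130 and 2649 CPM in SE mice and 2345 and 2387 CPM in control mice (0.29 ± 0.18). Neither group overlapped the other, and without SE replicate 1 the fold changes were 0.35 and 0.16. The other arms were on the other side: miR-221-5p had 218 and 243.0 CPM in SE mice, against 267 and 243.5 CPM in control mice (-0.15 ± 0.21, and -0.072 without SE replicate 1), and miR-222-5p had 15.3 and 21.9 CPM in SE mice, against 22.8 and 25.7 CPM in control mice (-0.38 ± 0.34, and -0.15 without SE replicate 1). Another miRNA of chromosome X, miR-532-5p, had 679 and 520.1 CPM in SE mice and 439 and 410 CPM in control mice (0.50 ± 0.26, and 0.29 without SE replicate 1).

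All 3 members of the miR-29 family, which are known to repress collagens and to protect mature neurons from apoptosis in mice, lay below the controls. miR-29a-3p had 21052 and 25493 CPM in SE mice, against 35059 and 32141 CPM in control mice (-0.53 ± 0.27, unadjusted p = 0.0761). miR-29b-3p had 441 and 566 CPM in SE mice, against 842 and 755 CPM in control mice (-0.67 ± 0.46), and miR-29c-3p had 968 and 1366 CPM in SE mice, against 1948 and 1668 CPM in control mice (-0.63 ± 0.42). The groups did not overlap for any of the 3, and without SE replicate 1 the fold changes were -0.40, -0.50 and -0.40. Of the 4 tested 5p arms of the family 3 overlapped the controls and miR-29b-2-5p lay above them. miR-29a-5p had 24.1 and 27.2 CPM in SE mice and 24.9 and 20.8 CPM in control mice.

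The miR-30 family, with another seed, was split, and some abundant members overlapped between the groups. miR-30d-5p had 12440 and 15360 CPM in SE mice and 14230 and 14840 CPM in control mice (-0.06). miR-30b-5p had 1662 and 1558 CPM in SE mice and 1537 and 1668 CPM in control mice (0.007). miR-30e-5p had 5413 and 8425 CPM in SE mice, against 9652 and 10240.1 CPM in control mice (-0.52 ± 0.32), and miR-30a-5p had 9626 and 15149 CPM in SE mice, against 15790.5 and 15238 CPM in control mice (-0.32 ± 0.22). Both were low mainly in SE replicate 1, and without it the fold changes were -0.24 and -0.03. miR-30c-5p, which was named after its values had been seen, lay above the controls, with 11582 and 9959.98 CPM in SE mice and 9135 and 9695 CPM in control mice (0.19 ± 0.24, and 0.081 without SE replicate 1). Over the miR-29 and miR-30 lists together, 3 of 18 rows lay above and 6 below both controls, against 18.3% and 20.5% of all miRNAs, with a median fold change of 0.02. The family of the seed shared by miR-15 and miR-16 was also picked after its values had been seen. It had 4 of 6 matched members below the controls and 0 above, against 20.5% and 18.3% of all miRNAs. Its fold changes ran from -0.49 to -0.01 with a median of -0.29. In this family miR-16-5p had 2550.1 and 3276 CPM in SE mice and 3428 and 3298 CPM in control mice (-0.21 ± 0.24, and -0.038 without SE replicate 1).

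**Figure D3:**
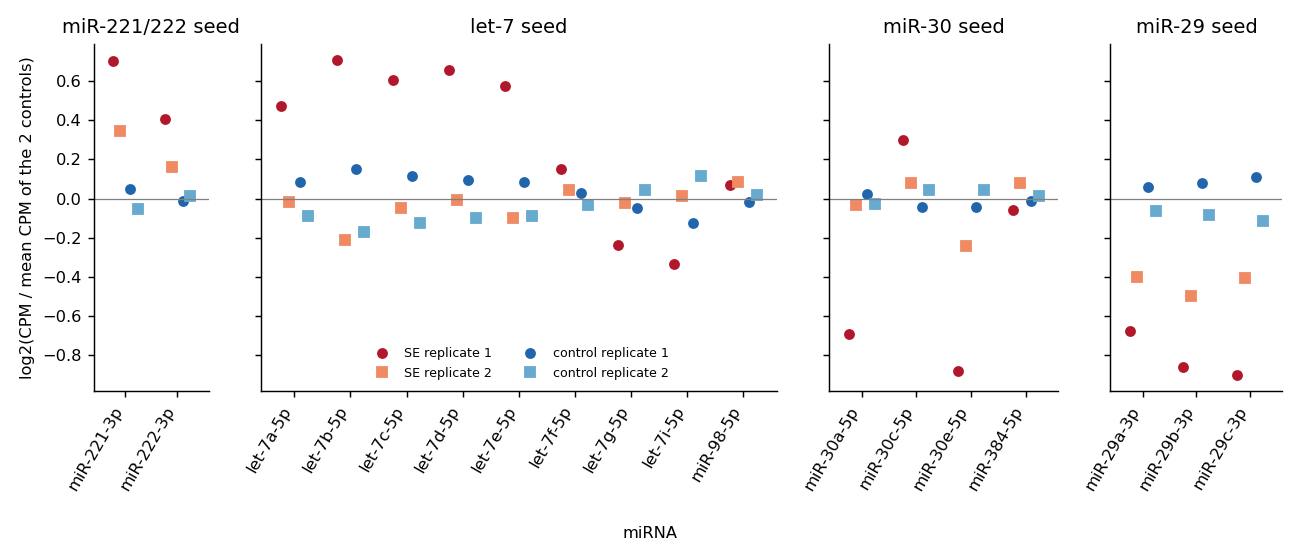
Each point is 1 library, as log2 of CPM over the mean CPM of the 2 controls (vertical axis), for miRNAs grouped by seed (horizontal axis), with SE libraries left of controls. Both SE libraries sit above the controls for the pair of miR-221 and miR-222 and below them for the miR-29 family, while members of the let-7 and miR-30 families lie on both sides, mostly in SE replicate 1. miR-30b-5p and miR-30d-5p are not drawn.

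The let-7 family, which is known for keeping cells in a mature state and for binding Toll-like receptor 7 in mouse neurons, had members that were high in SE replicate 1 alone. let-7c-5p had 33285 and 21174 CPM in SE mice, against 23695 and 20079 CPM in control mice (0.32 ± 0.38). let-7b-5p had 7719 and 4082 CPM in SE mice, against 5247 and 4204 CPM in control mice (0.32 ± 0.46), and let-7d-5p had 9670 and 6123 CPM in SE mice, against 6559 and 5732 CPM in control mice (0.36 ± 0.35). For each of these SE replicate 1 was the highest of the 4 libraries and SE replicate 2 lay below control replicate 1. Without SE replicate 1 the fold changes turned, to -0.048, -0.21 and -0.0054.

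Not every member was high in SE replicate 1. let-7g-5p had 21047 and 24459 CPM in SE mice and 24022 and 25605 CPM in control mice (-0.13 ± 0.18), lowest in SE replicate 1. let-7f-5p had 32569 and 30214 CPM in SE mice and 29955 and 28691 CPM in control mice (0.10 ± 0.25, and 0.043 without SE replicate 1), highest in SE replicate 1 and without overlap. Of 22 rows in the let-7 list 21 were tested, 5 lay above and 4 below both controls, against 18.3% and 20.5% of all miRNAs, and the median fold change was 0.18. The scarce arm let-7g-3p, at 1.20 and 3.62 CPM in SE mice and 6.98 and 5.49 CPM in control mice (-1.35 ± 0.61, unadjusted p = 0.0489, and -0.78 without SE replicate 1), was the only let-7 row under 0.05 before adjustment.

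The miR-125 miRNAs lie in clusters with let-7 and miR-99 or miR-100 genes. Of these, miR-125a-5p and miR-125b-5p were also highest in SE replicate 1, but not every miR-125 arm was. miR-125a-5p had 21959 and 13376 CPM in SE mice, against 13928 and 13470.0 CPM in control mice (0.37 ± 0.47), and without SE replicate 1 its fold change was -0.034. miR-125b-5p had 49864 and 38219 CPM in SE mice and 39089.6 and 38079.9 CPM in control mice (0.19 ± 0.36), and -0.014 without that library. miR-99a-5p went the other way, with 8822 and 10881 CPM in SE mice, against 11943 and 12590.4 CPM in control mice (-0.32 ± 0.19, and -0.17 without SE replicate 1), and without overlap. Of the 11 rows in this list 1 lay above and 3 below both controls, against 18.3% and 20.5% of all miRNAs.

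The choroid plexus miRNAs differed more between the 2 control mice than between the groups. miR-1298-5p of the Htr2c intron had 4206 and 5748 CPM in SE mice, against 8464 and 800.5 CPM in control mice, so that the controls alone spanned a factor of 10.6. miR-448-3p, from the same intron, had 360.0 and 553 CPM in SE mice and 802 and 108 CPM in control mice. For miR-204-5p, the leading miRNA of choroid plexus and pigment epithelia, the values were 5080 and 5266 CPM in SE mice and 8592 and 1520 CPM in control mice. In each case control replicate 1 was highest, control replicate 2 lowest and both SE libraries lay between them.

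That order held for most of the set. Of the 17 tested miRNAs of the Htr2c intron, miR-34b, miR-34c, miR-449 and miR-204, control replicate 1 was the highest library for 15, control replicate 2 the lowest for 15, and both SE libraries lay between the controls for 14. The ratio of control replicate 1 to control replicate 2 ran from 0.690 to 11.2 with a median of 4.87 where both had counts. Of the 221 miRNAs at 100 CPM or more only 6 had a ratio of 3 or more between these libraries, and all 6 belong to this set, while the median ratio over the 221 was 0.977. The fitted fold changes were 0.10 ± 0.95 for miR-1298-5p, 0.01 ± 0.89 for miR-448-3p and 0.03 ± 0.66 for miR-204-5p.

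Which control was used decided the direction of these miRNAs. Without control replicate 1 the fold changes were 2.64 for miR-1298-5p, 2.08 for miR-448-3p and 1.77 for miR-204-5p, and without control replicate 2 they were -0.77, -0.81 and -0.73. miR-34c-5p, a miRNA of ciliated epithelia, had 772 and 1313 CPM in SE mice, against 2418 and 665 CPM in control mice (-0.56 ± 0.58, and 0.65 without control replicate 1). miR-34b-5p had 30.7 and 57.7 CPM in SE mice, against 124 and 33.1 CPM in control mice (-0.83 ± 0.73, and 0.42 without control replicate 1). Among the 10 rows of the Htr2c intron 0 lay above and 0 below both controls, against 18.3% and 20.5% of all miRNAs. Their median fold change was 0.05.

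The same miRNAs varied among control mice of other times too. miR-1298-5p had 694 and 3101 CPM in the 2 control libraries of 1 h, 5513 and 2003 CPM in those of 8 h, and 4467 and 1064 CPM in those of 120 h. In SE libraries of those times it had 5520.4 and 4683 CPM at 1 h, 4770.4 and 5766 CPM at 8 h and 3672 and 2592 CPM at 120 h. The amount of choroid plexus taken with each hippocampus was not measured, and its part in these values was not tested. Control replicate 2 was also the only library of 24 h from a female, so sex and library cannot be told apart in its values. The plan had listed the miR-200 family with the choroid plexus markers, but the set of 17 leaves it out. On the list of choroid plexus and epithelial miRNAs 18 of 31 rows were tested. Of these 0 lay above and 2 below both controls, against 18.3% and 20.5% of all miRNAs. Epithelial miRNAs of the miR-200 family mostly had the other order of controls. miR-200b-3p had 96.2 and 131 CPM in SE mice and 51.8 and 130.3 CPM in control mice, miR-200a-3p had 47.2 and 87.3 CPM in SE mice and 30.9 and 102.6 CPM in control mice, and miR-429-3p had 24.5 and 36.9 CPM in SE mice and 12.9 and 41.3 CPM in control mice. miR-200c-3p, at 1.41 and 2.07 CPM in SE mice and 2.50 and 0.857 CPM in control mice, did not.

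**Figure D4:**
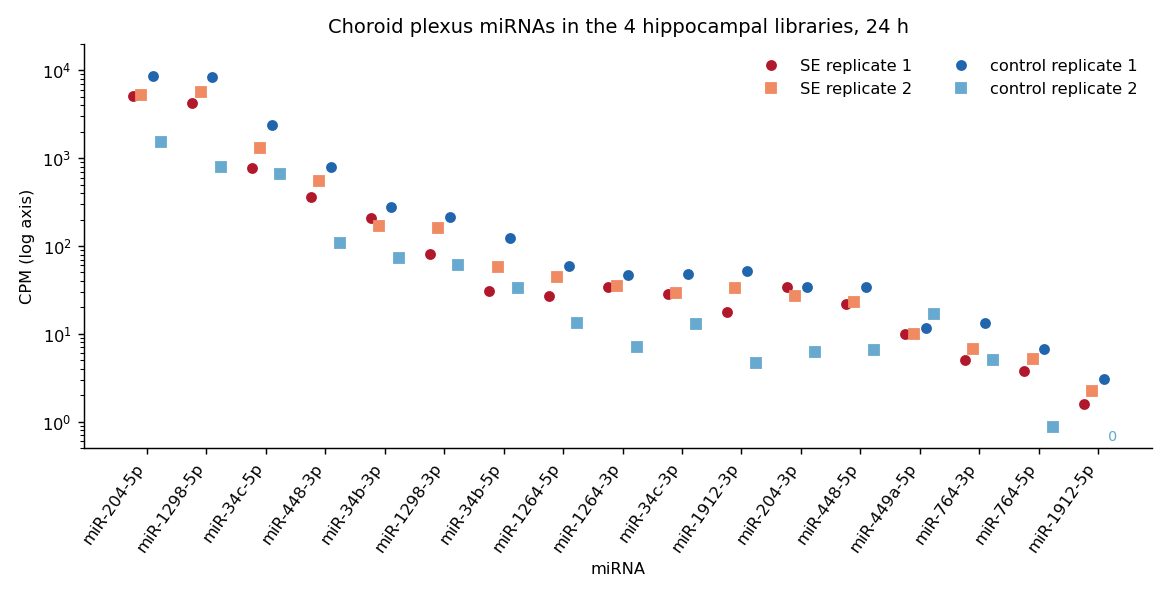
CPM of the 17 tested choroid plexus miRNAs (vertical axis, logarithmic) in each library, with SE libraries left of controls at every miRNA and miRNAs ordered by mean level. Control replicate 1 is the highest library for 15 of the 17 and control replicate 2 the lowest for 15, and a printed 0 marks a library with no counts.

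Among miRNAs known to respond to neuronal activity or seizures, the best known had small fold changes. miR-132-3p, which CREB induces in active neurons, had 3162 and 2967 CPM in SE mice, against 2909 and 3276 CPM in control mice (-0.01 ± 0.26). Its cluster partner miR-212-3p had 244 and 230.3 CPM in SE mice and 209 and 221 CPM in control mice (0.14 ± 0.22), and miR-134-5p, which limits dendritic spine size in rodent neurons, had 187 and 198 CPM in SE mice and 198 and 233 CPM in control mice (-0.17 ± 0.20). The 3 fold changes were smaller than their standard errors. Of 27 rows in this list 23 were tested, 2 lay above and 5 below both controls, against 18.3% and 20.5% of all miRNAs, and the median was -0.08. miR-132-3p and miR-212-3p were named for what they are known for, outside the rule.

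The lowest member of that list was miR-22-3p, a miRNA known to restrain inflammation after seizures in mice. It had 970 and 1422 CPM in SE mice, against 2145 and 1814 CPM in control mice (-0.73 ± 0.44), without overlap, and its fold change was -0.48 without SE replicate 1. miR-21a-5p, which reactive glia and macrophages express, had 4043 and 6242 CPM in SE mice and 6690.3 and 6197 CPM in control mice (-0.33 ± 0.23, and -0.046 without SE replicate 1), low in SE replicate 1 alone. miR-146a-5p, a target and brake of NF-kB signalling, had 159 and 174 CPM in SE mice and 167 and 152 CPM in control mice, and the groups overlapped.

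Markers of other cell types lay on both sides of the controls. Among myeloid miRNAs 1 of 8 tested rows lay above and 1 below both controls, against 18.3% and 20.5% of all miRNAs. miR-150-5p of lymphocytes had 756 and 488 CPM in SE mice and 475 and 418 CPM in control mice (0.48 ± 0.39, and 0.13 without SE replicate 1). miR-223-3p of neutrophils had 28.5 and 33.4 CPM in SE mice and 34.1 and 14.4 CPM in control mice (0.35 ± 0.40, and -0.14 without control replicate 2). miR-142a-5p of leukocytes had 37.3 and 65.4 CPM in SE mice and 65.7 and 59.3 CPM in control mice (-0.28 ± 0.32, and 0.066 without SE replicate 1). Summed over the myeloid list, SE mice had 1011 and 790 CPM and control mice 775 and 672 CPM. Most of this sum was miR-150-5p, and without the miR-150 arms the sums were 249 and 297 CPM in SE mice and 296 and 249 CPM in control mice, so that the groups overlapped. For oligodendrocytes, miR-219a-2-3p had 2171 and 2295 CPM in SE mice and 2265 and 2331 CPM in control mice, and miR-338-5p had 879 and 782 CPM in SE mice and 631 and 681 CPM in control mice (0.34 ± 0.33). The other arm, miR-338-3p, lay below the controls, with 3.01 and 2.58 CPM in SE mice, against 3.95 and 4.97 CPM in control mice (-0.67 ± 0.49). Of the 4 tested oligodendrocyte rows 1 lay above and 1 below both controls. The endothelial miR-126a-3p had 1580 and 2326 CPM in SE mice and 2395 and 2295 CPM in control mice (-0.26 ± 0.28, and -0.011 without SE replicate 1). Of the 9 tested vascular rows 3 lay above and 2 below both controls. miR-451a of red blood cells had 210 and 328 CPM in SE mice and 290 and 302 CPM in control mice (-0.14 ± 0.49, and 0.15 without SE replicate 1). It is on the blood and liver list, where 2 of 5 tested rows had a positive and 3 a negative fold change. In that list 1 row lay above both controls and 0 below. The joint row of miR-486a-5p and miR-486b-5p had 250 and 168 CPM in SE mice and 145 and 155 CPM in control mice, without overlap.

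The imprinted Dlk1-Dio3 cluster, the largest miRNA cluster of the mouse brain, had members on both sides. Of 104 rows 88 were tested, 12 lay above and 21 below both controls, close to the shares of all miRNAs (18.3% and 20.5%), and the median was -0.05. The lower ones included miR-300-3p, with 471 and 667 CPM in SE mice, against 769 and 909 CPM in control mice (-0.56 ± 0.28), and miR-381-3p, with 234 and 335 CPM in SE mice, against 413 and 450 CPM in control mice (-0.60 ± 0.32). miR-376a-3p had 166 and 219.3 CPM in SE mice and 287 and 299.9 CPM in control mice (-0.61 ± 0.41). These 3 did not overlap between the groups, and without SE replicate 1 they stood at -0.33, -0.36 and -0.42. miR-127-3p, which represses the retrotransposon-derived gene Rtl1 from the opposite strand, was among the higher ones, with 8406 and 7471 CPM in SE mice, against 6225 and 6987 CPM in control mice (0.27 ± 0.17). miR-431-5p had 99.99 and 106 CPM in SE mice and 88.2 and 78.0 CPM in control mice (0.31 ± 0.44).

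The arms of a hairpin were compared where both were tested. Of 190 hairpins with both arms tested, the fold changes had the same sign in 111, both arms lay above both controls in 6, both below in 12, and the arms lay on opposite sides in 17, where single miRNAs lay above in 18.3% and below in 20.5% of cases. Among the 37 hairpins with both arms at 100 CPM or more these counts were 17 of the same sign, 0, 2 and 5. miR-379 and miR-30a were among the 5: miR-379-5p had 1278 and 1859.6 CPM in SE mice, against 1861 and 2573 CPM in control mice (-0.50 ± 0.31), where SE replicate 2 nearly equalled control replicate 1. Its fold change was -0.25 without SE replicate 1 and -0.25 without control replicate 2. miR-379-3p had 167 and 156 CPM in SE mice, against 136 and 143 CPM in control mice (0.21 ± 0.23). miR-30a-3p had 357 and 362 CPM in SE mice and 318 and 310 CPM in control mice (0.19 ± 0.22), opposite to miR-30a-5p above.

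The rodent Sfmbt2 cluster, a large repeat-like set of miRNAs best known from placenta, was scarce here, and reads of its near-identical members may be split between rows. Of 74 rows 19 were tested, 3 lay above and 7 below both controls, against 18.3% and 20.5% of all miRNAs. The median of -0.25 was below that of all miRNAs (0.01) and of all features (-0.03). miR-467c-5p had 5.22 and 5.34 CPM in SE mice, against 10.01 and 8.92 CPM in control mice (-0.84 ± 0.30, unadjusted p = 0.0179). miR-669h-5p had 1.00 and 1.21 CPM in SE mice, against 2.63 and 2.40 CPM in control mice (-1.17 ± 0.53, unadjusted p = 0.0489). Summed over the list, SE mice had 143 and 135 CPM and control mice 159 and 169 CPM.

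The smallest p values belonged to scarce miRNAs. miR-3081-3p had 1.00 and 1.03 CPM in SE mice, against 3.42 and 3.77 CPM in control mice (-1.80 ± 0.49, unadjusted p = 0.00359, adjusted p = 1 by edgeR). miR-8112 had 3.01 and 2.58 CPM in SE mice, against 1.19 and 0.857 CPM in control mice (1.42 ± 0.45, unadjusted p = 0.00899). miR-1968-5p had 3.61 and 3.10 CPM in SE mice, against 1.58 and 1.71 CPM in control mice (1.02 ± 0.41). These values rest on few reads, 5 and 6 counts of miR-3081-3p in the SE libraries for example, and no role in the brain is attached to these miRNAs here. miR-8114 had 7.83 and 6.03 CPM in SE mice and 4.08 and 3.43 CPM in control mice (0.87 ± 0.35).

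Other classes of small RNA took little of each library. MiRNAs made up 94.9% and 93.6% of counts in SE mice, against 93.5% and 92.9% in control mice, a difference of 1.03 percentage points (exact permutation test, two-sided, p = 0.333, which is the smallest p that 2 against 2 can give). Rows annotated as piRNA took 1.70% and 2.37% in SE mice and 2.39% and 2.52% in control mice (difference -0.418, exact permutation p = 0.333), and snoRNAs took 1.78% and 1.94% in SE mice and 1.91% and 2.18% in control mice (difference -0.184, exact permutation p = 0.667). A row annotated as piRNA names a sequence match and does not show a Piwi-bound RNA, since many such sequences lie in transfer, ribosomal or nucleolar RNAs. Of 140 tested piRNA rows 7 lay above and 32 below both controls, against 15.9% and 21.9% of all features, with a median fold change of -0.24. The difference in their share of counts was -0.0836 percentage points without SE replicate 1.

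Among 166 tested snoRNA rows 28 lay above and 38 below both controls, against 15.9% and 21.9% of all features, with a median of -0.06. Snord68, a box C/D snoRNA that guides methylation of ribosomal RNA, had 214 and 279.5 CPM in SE mice, against 359 and 362 CPM in control mice (-0.55 ± 0.23, unadjusted p = 0.0349), and -0.37 without SE replicate 1. Snord16a, another box C/D snoRNA, had 60.4 and 59.9 CPM in SE mice and 43.1 and 43.6 CPM in control mice (0.47 ± 0.28). Snora70, a box H/ACA snoRNA, which guides pseudouridylation, had 2.01 and 3.44 CPM in SE mice and 1.05 and 1.37 CPM in control mice (1.17 ± 0.57, and 0.73 without SE replicate 2). Among 26 tested snRNA rows 5 lay above and 8 below both controls, against 15.9% and 21.9% of all features. Reads of such RNAs in a miRNA library are mostly pieces, so these values do not measure the full-length RNA.

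A set of 6 tested rows had at least 80% of their counts of 24 h in control replicate 2 alone. They were 3 rows annotated as piRNA, the snRNA row Gm24152, miR-5106 and miR-7654-3p. Gm24152 had 0 and 0 counts in SE mice, against 0 and 141 counts in control mice, and miR-5106 had 2 and 1 counts in SE mice, against 1 and 99 counts in control mice. miR-7654-3p had 1 and 0 counts in SE mice and 0 and 20 counts in control mice. Among tested features with at least 16 counts, none had such a share in SE replicate 1, SE replicate 2 or control replicate 1. Since control replicate 2 was the only library of 24 h from a female, sex and library cannot be told apart here.

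The distance of SE replicate 1 from the controls went with base composition. Of the 221 miRNAs at 100 CPM or more, 192 had a mature sequence in RefSeq, and over these the log2 ratio of SE replicate 1 to the controls had a Pearson correlation of 0.311 with the percentage of G and C in the mature sequence. For SE replicate 2 the correlation was -0.0149 and between the 2 controls it was -0.0720. These are correlations across miRNAs of single libraries, and miRNAs are not independent replicates. In SE replicate 1 the median log2 ratio was -0.24 for the 55 miRNAs with 35% to 45% G and C, and 0.17 for the 34 with 55% or more, against -0.04 and -0.01 in SE replicate 2. The miR-29 sequences printed above hold 34.8% to 40.9%, let-7g-5p 36.4%, let-7b-5p 45.5% and miR-222-3p 52.2%. Single miRNAs of equal percentage went both ways in SE replicate 1. At 40.9% its log2 ratio to the controls was -0.67 for miR-29a-3p, but 0.61 for let-7c-5p and 0.66 for let-7d-5p. The fitted fold changes of SE minus control had a correlation of 0.257 with the percentage of G and C over the same 192 miRNAs. No fit with base composition as a term was run.

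**Figure D5:**
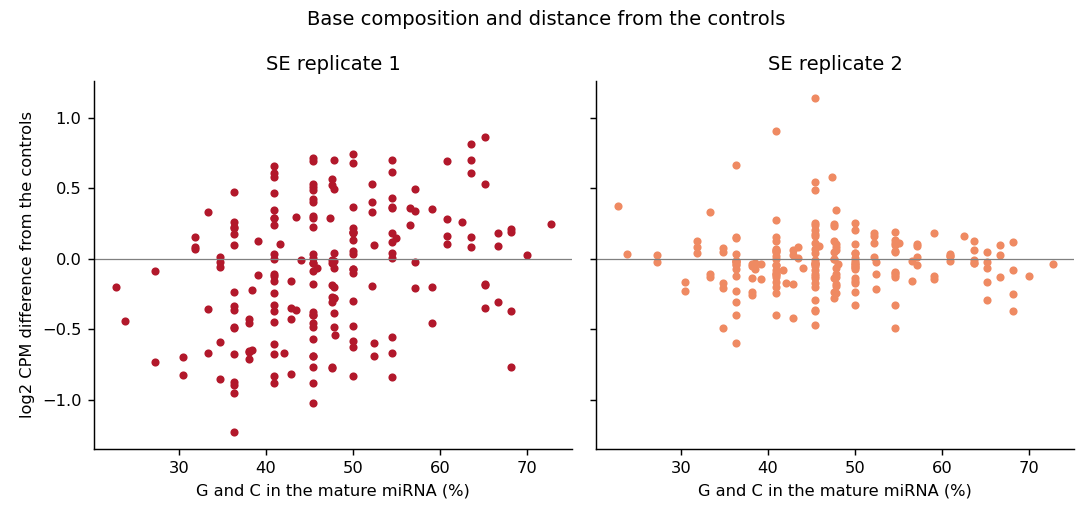
Each point is 1 of the 192 miRNAs at 100 CPM or more with a RefSeq sequence, placed by the percentage of G and C in its mature sequence (horizontal axis) and by its log2 CPM minus the mean log2 CPM of the 2 controls (vertical axis), for SE replicate 1 on the left and SE replicate 2 on the right. The points slope upward for SE replicate 1 (r = 0.311) and are flat for SE replicate 2 (r = -0.0149).

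The response of 24 h was also set against those of the other times, each with its own controls, by the contrast of the SE effects in the same edgeR fit. No feature passed an adjusted p of 0.05 for 24 h minus 1 h, minus 8 h or minus 120 h (0% each), and 37 (3.35%), 101 (9.16%) and 9 (0.816%) were under an unadjusted p of 0.05. DESeq2 on the same libraries called 1, 3 and 3 features, all with at most 5 counts in any library of 24 h, and the likelihood ratio test called 0. SE against control at 24 h had the fewest features under an unadjusted p of 0.05, 14 (1.27%), against 42 (1 h, 3.81%), 155 (8 h, 14.1%) and 29 (120 h, 2.63%), and whether these counts differ was not tested.

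The miR-29 family and some single miRNAs that lay low at 24 h had a positive fold change at 8 h. For miR-29c-3p the fold changes were -0.30 (1 h), 1.13 ± 0.42 (8 h), -0.63 ± 0.42 (24 h) and 0.15 (120 h), and the difference between 24 h and 8 h had an adjusted p of 0.404 (edgeR). miR-30e-5p stood at 1.03 ± 0.33 at 8 h and -0.52 ± 0.32 at 24 h, miR-153-3p at 1.90 ± 0.67 and -0.89 ± 0.65, and miR-22-3p at 1.04 ± 0.45 and -0.73 ± 0.44, each with an adjusted p of 0.404 for the difference. The values of 8 h lay highest in SE replicate 1 of that time: miR-153-3p had 315 and 64.9 CPM in SE libraries of 8 h, against 59.97 and 41.6 CPM in their controls, and miR-29c-3p had 882 and 368 CPM, against 304 and 267 CPM. miR-18a-5p of the miR-17-92 family, which acts in dividing cells, had 9.64 and 9.47 CPM in SE mice and 15.9 and 15.8 CPM in control mice at 24 h (-0.73 ± 0.42), and a fold change of 1.90 ± 0.48 at 8 h. It was the lowest of the 19 tested rows of that family at 24 h, whose fold changes reached 0.77 with a median of 0.04. Of these rows 4 lay above and 4 below both controls, against 18.3% and 20.5% of all miRNAs. All 4 libraries of 8 h carry a batch label of their own, while the other 12 share one, so that time and batch cannot be told apart in these differences. Within those of 8 h the titles of all SE libraries begin with one letter and those of all controls with another. The SE effect of 8 h therefore cannot be told apart from anything that these letters mark. For miR-221-3p the SE effect of 24 h was 0.54, against fold changes of 0.13 (1 h), -0.02 (8 h) and 0.06 (120 h), and the smallest adjusted p of these differences was 0.617 (edgeR).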

How the data were processed

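Hippocampal total RNA was made into small RNA libraries with the NEXTflex Small RNA kit. Per the study's methods, the authors demultiplexed reads with bcl2fastq, trimmed adapters and then 4 bases from both ends with the FASTX-Toolkit, and aligned and counted them with Oasis 2.0. The deposited values are whole-number counts per small RNA, without normalization, and the genome build behind the small RNA counts is not given in the sources used here. No molecular identifiers were named, so PCR copies may stay in the counts.

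Counts were filtered with filterByExpr (minimum count 10, minimum total 15) over the 8 groups (time by treatment), scaled by TMM and tested with edgeR 4.0.16 in R 4.3.3 (glmQLFit and glmQLFTest, all 16 small RNA libraries in 1 model), with Benjamini-Hochberg adjustment over all 1103 features and a threshold of 0.05. All times stayed in the fit to estimate the spread. DESeq2 1.42.0, edgeR's likelihood ratio test and the other settings given below served as alternatives, and the steps were tested on simulated counts. Mature sequences matched 572 of 663 tested miRNAs, and 17 of 20 sought for printing.

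Named features are, besides any past the threshold, the 10 higher and 10 lower miRNAs and the 5 higher and 5 lower snoRNA or piRNA rows of smallest p, the miRNAs that the study's text names for 24 h, up to 6 members of smallest p of each list, the 10 most abundant miRNAs and the other arms of all of these. Not every one of them is printed, and the text also gives others by their known role, among them miR-30c-5p, miR-132-3p, miR-212-3p, miR-16-5p, miR-146a-5p, the miR-200 family, miR-219a-2-3p and miR-451a, which were chosen after their values were seen. The comparison and the lists were chosen with earlier results of these data known. The mRNA table was not used.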

Additional observations from a re-analysis of the deposited data

How the results depend on the processing

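In the settings run on filtered counts (edgeR's quasi-likelihood and likelihood ratio tests, DESeq2, other normalizations, a stricter filter, fewer libraries, covariates), 0 features were called at 24 h. Without a filter 0 were called higher and 7 lower, with most of their counts of 24 h in control replicate 2. In the main fit, which used filtered counts, 6 higher and 8 lower features were under an unadjusted p of 0.05. DESeq2 called 1, 3 and 3 differences of 24 h from 1 h, 8 h and 120 h, where edgeR called 0. DESeq2 on the 4 libraries of 24 h alone was added after seeing the data.

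Some fold changes near 0 turned in sign. Without a filter miR-9-5p and miR-124-3p stood at -0.024 each, miR-448-3p at -0.092 and miR-204-5p at -0.061. With sex as a covariate the values were -0.062 for miR-9-5p, -0.14 for miR-124-3p, -0.035 for let-7f-5p, -0.091 for miR-125b-5p and 0.090 for miR-132-3p. miR-132-3p was also positive with DESeq2 and with its size factors (0.010 each), with a stricter filter (0.072), in the libraries of 24 h alone (0.030, and 0.035 by DESeq2) and in the 12 libraries of its batch (0.030).

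With each library left out in turn, the fold change ran from -0.015 to 0.075 for miR-9-5p, from -3.29e-04 to 0.066 for miR-124-3p, from -0.096 to 0.075 for miR-132-3p, from -0.048 to 0.60 for let-7c-5p, from -0.21 to 0.71 for let-7b-5p, from -0.0054 to 0.65 for let-7d-5p, from -0.034 to 0.68 for miR-125a-5p and from -0.014 to 0.37 for miR-125b-5p. It ran from -0.77 to 2.64 for miR-1298-5p, from -0.81 to 2.08 for miR-448-3p, from -0.73 to 1.77 for miR-204-5p, from -1.21 to 0.65 for miR-34c-5p, from -1.49 to 0.42 for miR-34b-5p, from -0.14 to 1.10 for miR-223-3p, from -0.74 to 0.066 for miR-142a-5p and from -0.49 to 0.15 for miR-451a. The difference in share of counts ran from 0.401 to 1.65 percentage points for miRNAs, from -0.753 to -0.0836 for piRNA rows and from -0.317 to -0.0503 for snoRNAs. Where a lone library stood for a group it was assumed to vary like the others. The cause of these shifts was not tested.

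Both groups carry the same replicate numbers in the labels. With a replicate block 0 features were called, and 7 higher and 7 lower were under an unadjusted p of 0.05. The deviations of same-numbered libraries of 24 h had a correlation of -0.0585 across features. Such a correlation from so few libraries cannot show whether same-numbered libraries shared any handling, which was not tested.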
